A study of Homo sapiens with 9 samples.

Results

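Empty vector cells were set against mock cells of MKN45, a gastric cancer line, to show what delivery of a vector without an insert did to gene expression and what both kinds of control cell expressed in common. The comparison was defined by the sample labels and held 6 of the 9 arrays of the study: 3 from cells with the vector alone and 3 from mock cells. The other 3 arrays came from cells expressing the mutant YAP-S127A, in which the coactivator YAP cannot be phosphorylated at a main inhibitory site. Total RNA of every sample was made into biotin-labelled cRNA and hybridised to Illumina bead arrays with 47231 probes. All 9 samples were labelled as MKN45 gastric cancer cells, and the labels gave no sequence of the vector, route of delivery, selection, promoter or time after delivery. Nothing in them states that replicate arrays are from separate cultures. The p-values therefore reflect array-to-array spread only, and that spread may be technical.

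Introducing DNA into a cell line can itself change gene expression. Cytosolic DNA and double-stranded RNA are sensed by receptors that turn on type I interferon genes and then interferon-stimulated genes, and delivery reagents or antibiotic selection can raise stress responses. An empty vector control carries these effects together with the transcripts of the vector. A mock control carries those of the handling and of any reagent it was given, which the labels did not state. MKN45 is a poorly differentiated gastric adenocarcinoma line known for amplification of the receptor tyrosine kinase gene MET.

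The arrays gave similar signals before normalization. The median signal, in intensity units on a linear scale, was 132, 109 and 128 on vector arrays 1 to 3, against 129, 131 and 136 on mock arrays 1 to 3. Vector array 2 was the dimmest. After normexp background correction, log2 transformation and quantile normalization, 16180 genes were tested, each by its brightest probe, in 1 limma fit over all 9 arrays. Across these genes, normalized levels of a vector and a mock array correlated with r of 0.991 to 0.994, against 0.994 to 0.995 between vector arrays and 0.990 to 0.994 between mock arrays. Genes are not independent replicates, and these correlations describe the arrays.

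A vector array and a mock array differed by about as much as 2 arrays of the same group. The median absolute log2 difference per gene was 0.122 to 0.152 in the 9 pairs of a vector and a mock array, 0.119 to 0.126 in the 3 pairs of vector arrays and 0.132 to 0.158 in the 3 pairs of mock arrays. Mock array 1 stood apart from the others. On it 195 genes lay more than 1.5-fold from the mean of the other 5 control arrays, against 10 to 32 genes on each of the others. Without it, the pairs of a vector and a mock array ranged from 0.122 to 0.134, and mock arrays 2 and 3 differed by 0.132.

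Of the 16180 genes, 2 rose in vector cells and 0 fell at an adjusted p under 0.05 (limma, Benjamini-Hochberg), which is 0.0124% of the genes tested. They were HBB, which encodes the beta chain of adult haemoglobin, and TAOK1, a protein kinase that acts upstream of stress-activated MAP kinases and of the Hippo pathway. At an unadjusted p under 0.05, 448 genes were higher (2.77%) and 463 lower (2.86%). The 3 vector arrays did not overlap the 3 mock arrays for 1639 genes (10.1%), 908 higher (5.61%) and 731 lower (4.52%). With the same fit and threshold, 687 genes (4.25%) were called between YAP-S127A and mock cells and 559 (3.45%) between YAP-S127A and vector cells, comparisons that share these control arrays.

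The differences were small over nearly the whole array. Their median was 0.0034 on the log2 scale, 5% of genes lay below −0.20 and 5% above 0.20, and the median absolute difference was 0.0786. The median absolute difference was 0.106 between YAP-S127A and mock and 0.102 between YAP-S127A and vector. The 95% confidence interval of the vector minus mock difference lay within 2-fold either way for 16171 genes (99.9%) and within 1.5-fold for 15930 (98.5%). Each interval covers 1 gene on its own, and the offset of 50 added before taking log2 shrinks the changes of dim genes. HBB was the only tested gene with a difference past 2-fold, where 48 genes passed it between YAP-S127A and mock and 44 between YAP-S127A and vector. The intervals of 9 genes reached 2-fold: HBB, TAOK1, MT1E, MT2A, ALDOC, SLC2A3, ELMOD3, MBTD1 and OR2A42, named here after their values were seen.

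**Figure D1:**
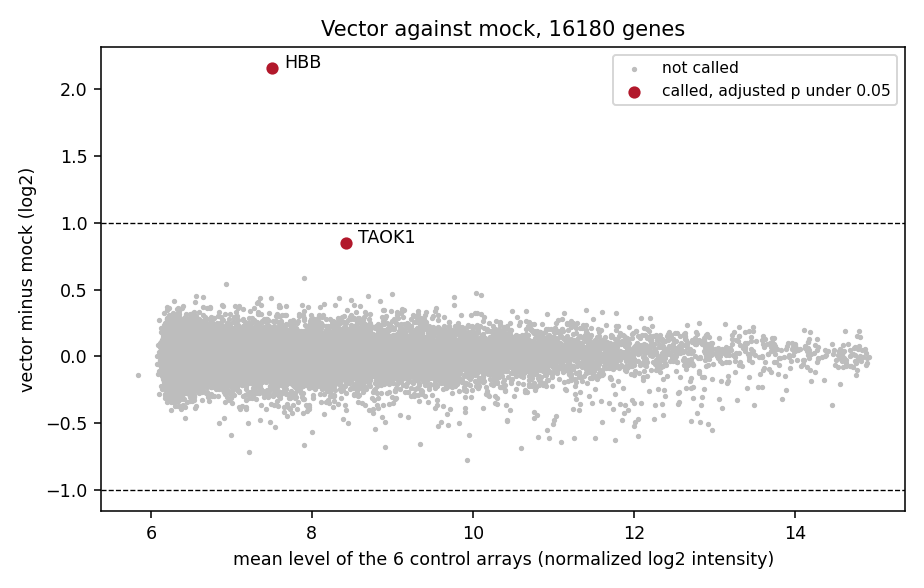
Difference between vector and mock cells (log2, vertical axis) against the mean normalized level of the 6 control arrays (log2 intensity, horizontal axis) for the 16180 genes tested, with dashed lines at 2-fold. HBB at 2.15 and TAOK1 at 0.85 are the 2 genes called, and HBB alone passes a line.

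HBB carried the largest difference of the comparison, in either direction. Its probe, ILMN_2100437, gave signals of 432, 334 and 532 on the vector arrays, against 126.8, 129.0 and 146.8 on the mock arrays. The YAP-S127A arrays, the other cells that had received a construct, gave 472, 481 and 422. All 6 arrays of cells with a construct were above every mock array, with no overlap. On the normalized log2 scale HBB was 8.58 ± 0.29 in vector cells and 6.43 ± 0.11 in mock cells (SD, n = 3 each). It rose by 2.15 ± 0.12 (SE), or 4.44-fold, with an adjusted p of 2.35e-10 (limma).

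In mock cells HBB sat at the level of background. Background was taken, on each array, as the 95th percentile of the raw signals of 437 olfactory receptor probes, genes that few tissues outside the nose express. HBB passed it on all 3 vector arrays and on 1 of 3 mock arrays, mock array 3, where the threshold was 142. With each mock array set at the higher of its own value and the threshold, HBB was at least 4.22-fold higher in vector cells and at least 4.94-fold higher in YAP-S127A cells. YAP-S127A and vector cells differed by 0.22 ± 0.12 for this gene, which did not pass the test (adjusted p = 0.402, limma). In bulk RNA, fewer cells with a transcript and less of it per cell cannot be told apart.

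Other globin genes were at or near background in both groups. Of the alpha chain genes, whose product pairs with beta globin, HBA1 passed it on 0 of the 6 control arrays, and of the probes of HBA2, 1 passed on 2 arrays and the other on 0. The fetal and embryonic globin genes HBG1, HBG2, HBE1 and HBZ, and HBD and HBM, which lie in the same gene clusters, each passed on 0 of 6. HBD, the globin most like HBB in sequence, differed by 0.0047 between vector and mock cells. The gene AHSP, which encodes the chaperone of free alpha globin, passed on 5 of 6 arrays and lay at −0.22 in vector cells. The labels do not give the vector's sequence, and the probe's sequence was not used here. Which transcript the probe read was not tested.

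TAOK1 gave a smaller difference and a less stable call. Its 1 probe, ILMN_1758087, read 529, 425 and 577 on the vector arrays and 349, 286 and 310 on the mock arrays. The vector arrays did not overlap the mock arrays. It rose by 0.85 ± 0.13 (SE), or 1.80-fold, with an adjusted p of 0.0154 (limma). Leaving out a single array ended the call in 3 cases, with an adjusted p of 0.134 for vector array 2, 0.383 for vector array 3 and 0.222 for mock array 2. It also ended with the deposited normalized values (adjusted p = 0.0851). Signals on the YAP-S127A arrays were 428, 341 and 309, overlapping the mock arrays, and neither YAP-S127A against mock (0.40, adjusted p = 0.0984) nor YAP-S127A against vector (−0.45, adjusted p = 0.0673) passed.

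**Figure D2:**
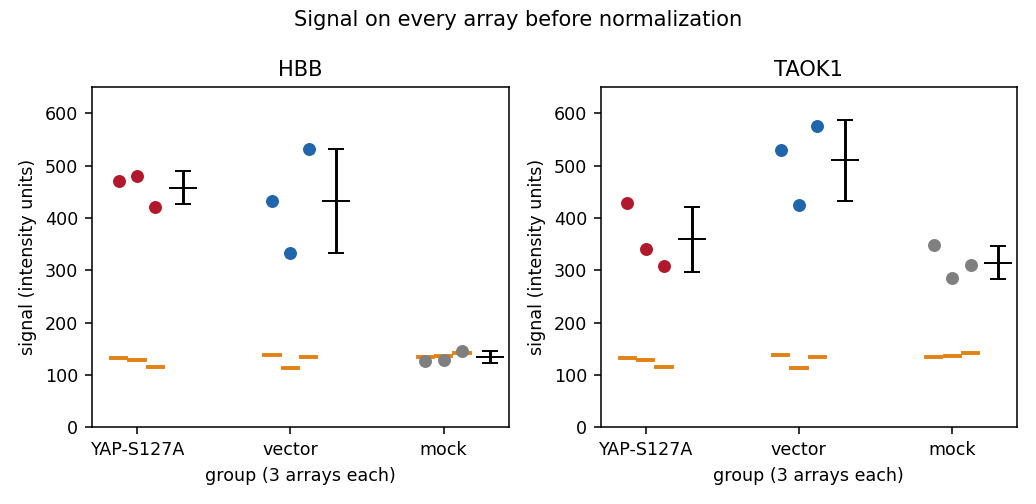
Signals of the HBB and TAOK1 probes in intensity units before normalization (vertical axis) for YAP-S127A, vector and mock cells (points, 1 per array; black bars, mean ± SD, n = 3), with the background threshold of each array as an orange dash. HBB lies at 334 to 532 on the vector arrays and at 126.8 to 146.8 on the mock arrays, while TAOK1 lies at 425 to 577 and at 286 to 349.

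No other gene passed the test by its brightest probe. Over all 35423 probes past the filter, those without a listed gene included, 3 were called (0.00847%), 2 higher (0.00565%) and 1 lower (0.00282%), the last a probe with no listed gene. The lowest unadjusted p-values among higher genes after those belonged to RBM20, a splicing factor known from heart muscle, at 0.45, NPIPB5, a member of a duplicated gene family, at 0.47, and RNU6ATAC, a small nuclear RNA of the minor spliceosome, at 0.54. Each had an adjusted p of 0.491. The probes of RNU6ATAC gave 0.54 and 0.55. They lay near background, which they passed on 5 and 4 of the 6 control arrays, and the probe of RBM20 passed it on 4. RNU6ATAC differed by 1.00 between YAP-S127A and mock cells. Members of the NPIP family are close copies of one another, so the gene behind that probe is uncertain.

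Among lower genes the lowest p-values belonged to HSCB, an iron-sulfur cluster co-chaperone, at −0.55 (adjusted p = 0.223), and to MT1E, SSTR2, MBTD1 and USH1G (adjusted p = 0.491 each). SSTR2, a somatostatin receptor, had normalized log2 levels of 8.90, 8.91 and 9.21 on the vector arrays and 10.18, 9.60 and 9.22 on the mock arrays. MBTD1, a chromatin reader, had 8.42, 8.49 and 8.79 on the vector arrays and 9.64, 9.40 and 8.69 on the mock arrays. In both, mock array 3 lay with the vector arrays and mock arrays 1 and 2 above them. Other probes of 3 of these genes gave other values: −0.12 for HSCB, −0.12 for MBTD1 and 0.20 for MT1E. The other MT1E probe passed background on 1 of the 6 control arrays, so its value is mostly one of background.

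Mock array 3 decided how many genes were called. Without it 54 genes passed (0.334%), 8 higher (0.0494%) and 46 lower (0.284%), among them MBTD1, USH1G, SSTR2 and MT1E. The mean level of those 46 lower genes relative to the 6 control arrays was −0.41, −0.20 and −0.15 on the vector arrays, against 0.62, 0.33 and −0.19 on mock arrays 1 to 3. On the YAP-S127A arrays it was −0.26, −0.21 and −0.13. The 46 genes were called with mock array 3 left out, a choice that favours genes on which it differs from mock arrays 1 and 2, so these means describe the genes chosen and support nothing further. Of the 46 genes, 29 had another probe past the filter. The median difference of these 29 without mock array 3 was −0.70 by the brightest probe, which had chosen them, and −0.03 by the other probes.

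Gene lists for delivery effects, stress, growth and cell identity were then described. The 26 lists had 557 genes tested, of which 1 was called, HBB in the list of blood markers, and 556 were not. Of the 557, 75 (13.5%) had vector arrays that did not overlap the mock arrays, beside 10.1% of all genes, and 51 (9.16%) had an unadjusted p under 0.05, beside 5.63%. The median difference lay within 0.1 of 0 for 23 of the 26 lists. The other 3 lists, metallothioneins, the integrated stress response and hypoxia with glycolysis, had medians below −0.1, with 0 members called. Of all 16180 genes, 51.2% had a difference above 0, the share to set beside each list's count above or below 0.

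The sensing of foreign nucleic acid and the interferon response showed no gene called. Of 35 tested genes 20 lay above 0 and 15 below, with a median of 0.03, beside 0.0034 for all genes. The interval of 34 of the 35 lay within 1.5-fold either way, beside 98.5% of all genes. The exception was ISG20, an interferon-induced exonuclease, which had levels of 9.23, 9.25 and 9.64 in vector cells and 9.72, 9.70 and 9.78 in mock cells. It was lower on every vector array (−0.36, adjusted p = 0.715). OAS3, which makes the activator of RNase L, lay at 0.23, IFITM2, a membrane protein that restricts virus entry, at −0.27, and IFIT5, an RNA-binding interferon-induced protein that passed background on 0 of the 6 control arrays, at −0.22.

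The sensing machinery was itself only partly above background. The DNA sensor CGAS passed on all 6 control arrays with signals of 450, 329 and 377 in vector cells and 383, 456 and 374 in mock cells. STING1, the adaptor downstream of CGAS, passed on 2 of 6, the double-stranded RNA receptor TLR3 on 3 of 6 and the RNA sensor gene RIGI on 1 of 6. The double-stranded RNA sensor genes IFIH1, at 1.83 to 2.51 times the threshold, and EIF2AK2, at 6.15 to 7.72 times, passed on all 6. The interferon genes IFNB1 and IFNL1 passed on 0 of 6. ISG15, a ubiquitin-like interferon-induced protein, was above background throughout, with 751, 492 and 537 in vector cells and 502, 631 and 689 in mock cells, and both sets of values overlapped. All 18 tested NF-kB and chemokine genes had intervals within 1.5-fold, beside 98.5% of all genes. Background was passed on all 6 control arrays by 10 of 23 genes of this list. The lowest p-value among those tested was that of TNFAIP3, an inhibitor of NF-kB, at −0.31 (adjusted p = 0.770). TNFAIP3 passed background on 2 of 6.

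Of the genes of the integrated stress response 0 of 28 were called. In this response ATF4 turns on genes of amino acid supply and the transcription factor DDIT3 when initiation of translation is inhibited. Differences lay below 0 for 25 of 28 genes, with a median of −0.14, where 51.2% of all genes lay above 0. DDIT3 had levels of 7.73, 7.86 and 7.57 in vector cells and 8.98, 7.92 and 7.95 in mock cells, so that mock array 1 alone was far above the rest. Its difference was −0.57 ± 0.19 (SE, adjusted p = 0.685, limma). ATF3, a stress-induced transcription factor, lay at −0.39, PPP1R15A, which restores translation, at −0.31, and PSAT1, an enzyme of serine synthesis, at −0.27.

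Of the hypoxia and glycolysis genes 0 of 37 were called and 28 lay below 0, at a median of −0.13. ALDOC, an aldolase, had levels of 10.03, 10.23 and 10.50 in vector cells and 11.36, 10.61 and 10.86 in mock cells. The groups did not overlap, and the difference was −0.69 (adjusted p = 0.491). SLC2A3, the glucose transporter GLUT3, had 7.34, 7.43 and 7.92 in vector cells and 8.74, 7.76 and 8.18 in mock cells, with overlap, at −0.66 (adjusted p = 0.511). ANGPTL4, a secreted inhibitor of lipoprotein lipase, lay at −0.50 and BNIP3L, a mitophagy receptor, at −0.30.

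Mock array 1 was the highest of the 6 arrays in all 3 lists. The mean level of the stress response list relative to the 6 control arrays was −0.02, −0.14 and −0.09 on the vector arrays, against 0.24, −0.05 and 0.06 on mock arrays 1 to 3. For hypoxia and glycolysis it was −0.12, −0.10 and 0.01 on the vector arrays, against 0.20, −0.07 and 0.08 on the mock arrays. Without mock array 1 the medians were −0.09 for the stress response, with 22 of 28 genes below 0, and −0.07 for hypoxia and glycolysis, with 27 of 37 below 0. The medians of both lists thus shrank, and most of their genes lay below 0.

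**Figure D3:**
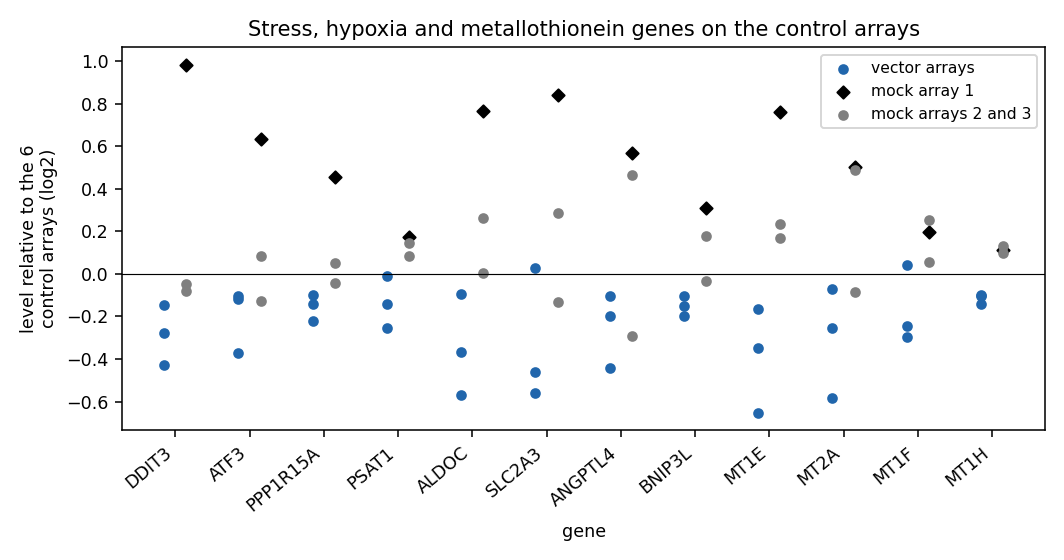
Normalized level of 12 genes on each control array relative to the mean of the 6 control arrays (log2, vertical axis), with vector arrays to the left of mock arrays for each gene (horizontal axis). Mock array 1 (black diamonds) is the highest array for DDIT3, ATF3, PPP1R15A, ALDOC, SLC2A3 and MT1E, while mock arrays 2 and 3 lie nearer to the vector arrays. For MT2A mock array 3 lies beside mock array 1, and for MT1H the mock arrays lie together above the vector arrays.

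Metallothioneins are small cysteine-rich proteins that bind zinc and copper, and the zinc-sensing factor MTF1 turns on their genes through metal response elements in the promoter. Promoters are shown for MT2A, MT1H and MT1X, the metallothionein genes of the tested list that the promoter table held, because the differences of that list all lay on the same side of 0. Each is the 250 bases before the start of the gene, from RefSeq (GRCh38.p14), on the plus strand of chromosome 16: chr16:56608334-56608583 for MT2A, chr16:56669564-56669813 for MT1H and chr16:56682220-56682469 for MT1X. Capitals mark the core of the metal response element, searched as TGCACNC and TGCGCNC on both strands.
MT2A: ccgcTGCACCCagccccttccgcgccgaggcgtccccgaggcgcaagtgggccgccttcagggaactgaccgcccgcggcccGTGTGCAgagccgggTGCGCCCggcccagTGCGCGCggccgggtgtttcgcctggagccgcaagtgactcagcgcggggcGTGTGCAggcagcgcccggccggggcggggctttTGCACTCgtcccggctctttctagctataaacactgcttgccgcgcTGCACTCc
MT1H: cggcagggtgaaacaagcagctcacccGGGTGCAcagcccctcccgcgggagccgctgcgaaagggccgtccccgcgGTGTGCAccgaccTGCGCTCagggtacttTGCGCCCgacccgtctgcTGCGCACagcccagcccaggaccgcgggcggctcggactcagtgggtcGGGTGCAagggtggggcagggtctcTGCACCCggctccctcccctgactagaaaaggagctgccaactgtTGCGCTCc
MT1X: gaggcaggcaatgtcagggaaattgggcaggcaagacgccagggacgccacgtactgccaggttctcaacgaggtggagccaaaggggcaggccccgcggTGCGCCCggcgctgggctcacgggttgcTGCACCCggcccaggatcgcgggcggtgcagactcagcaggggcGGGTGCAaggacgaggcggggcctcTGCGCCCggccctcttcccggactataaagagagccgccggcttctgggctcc
The window of MT2A held 7 matches, that of MT1H 8 and that of MT1X 4, with no overlap between matches. Of 35116 promoter windows of this length, 24.8% held at least 1 match, 0.37% at least 4 and 0.0513% at least 6. Of the other members searched, SLC30A1, a zinc exporter, had 1 match, and MTF1 and the zinc importer SLC39A10 had 0. A match describes these letters and is not evidence of binding.

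All 9 tested genes of the metallothionein and zinc list lay below 0 in vector cells and 0 were called, with a median of −0.23. MT1E had levels of 9.58, 9.27 and 9.76 in vector cells and 10.69, 10.16 and 10.09 in mock cells. The groups did not overlap for this probe, and the difference was −0.77 ± 0.17 (SE, adjusted p = 0.491, limma). MT2A, the most widely expressed human metallothionein gene, had 10.56, 10.23 and 10.74 in vector cells and 11.32, 10.73 and 11.30 in mock cells, at −0.60 (adjusted p = 0.685). Mock array 2 lay just below vector array 3, so MT2A overlapped.

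Other members had smaller differences. MT1H had 6.88, 6.92 and 6.92 in vector cells and 7.13, 7.12 and 7.15 in mock cells, without overlap, at −0.23 (adjusted p = 0.867). MT1F lay at −0.34 and MT1X at −0.35. The list's mean level was −0.13, −0.26 and −0.04 on the vector arrays, against 0.28, 0.02 and 0.14 on the mock arrays, and −0.39, −0.51 and −0.09 on the YAP-S127A arrays. Without mock array 1 the median was −0.22, with 8 of 9 genes below 0. Metallothionein transcripts are close copies of one another, so the share of each gene in a probe's signal is uncertain.

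**Figure D4:**
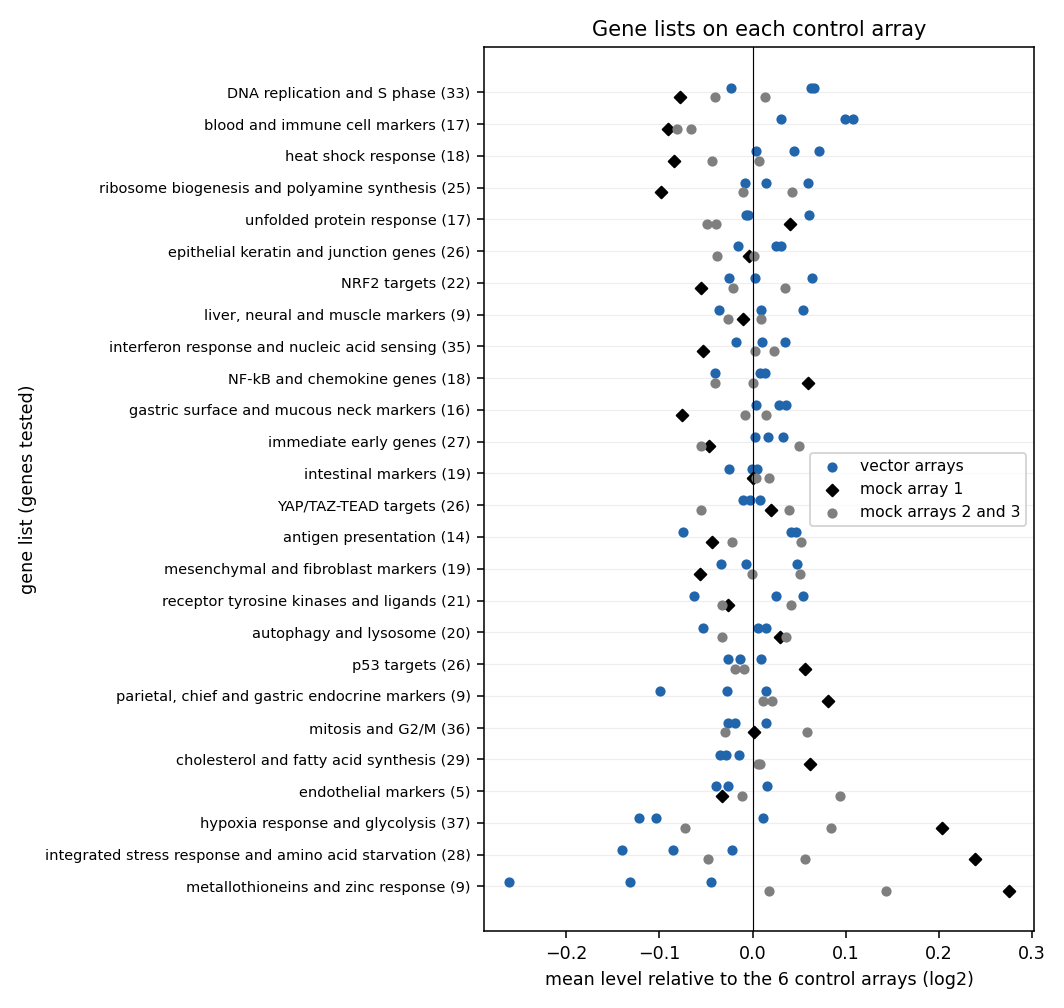
Mean normalized level of the tested genes of each of the 26 lists on each control array, relative to the 6 control arrays (log2, horizontal axis), ordered by the median difference, with vector arrays above mock arrays in each row. Most lists lie within 0.1 of 0 on every array, and the lowest 3 rows spread furthest, with mock array 1 at 0.20 to 0.28.

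Growth and lipid genes had list medians near 0, and none was called. Of 33 tested genes of DNA replication 25 lay above 0 with a median of 0.08, and RRM2, a subunit of ribonucleotide reductase, was at 0.30 (adjusted p = 0.785). For mitosis 16 of 36 genes lay above 0, with a median of −0.05. Of 29 genes of cholesterol and fatty acid synthesis 19 lay below 0, with a median of −0.06. At an unadjusted p under 0.05 (limma), 6 of the 29 were lower and 2 higher, beside 2.86% and 2.77% of all genes. HMGCS1, an early enzyme of the cholesterol pathway, had levels of 10.54, 10.44 and 10.75 in vector cells and 11.25, 10.92 and 10.88 in mock cells, without overlap (−0.44, adjusted p = 0.511). HSD17B7, a later enzyme of the same pathway, lay at −0.49 (adjusted p = 0.627), with overlap. FASN, the fatty acid synthase, lay at 0.35 (adjusted p = 0.784) and ACACA, which supplies its substrate, at 0.29 (adjusted p = 0.789).

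Further stress and signalling lists held single genes with larger differences and no call. Among 26 p53 targets, ZMAT3, an RNA-binding growth suppressor, had levels of 12.75, 12.64 and 12.67 in vector cells and 13.40, 13.40 and 12.92 in mock cells (−0.55, adjusted p = 0.491). Without mock array 3, the brightest probe of ZMAT3 gave −0.71 and its 2 other probes past the filter a median of 0.10. The DNA repair factor XPC lay at 0.30 in the same list. Among 27 immediate early genes, DUSP4, a MAP kinase phosphatase, lay at 0.58 (adjusted p = 0.491), with 8.03, 8.36 and 8.17 in vector cells and 7.23, 7.57 and 8.02 in mock cells. In the heat shock list 14 of 18 genes lay above 0, led by the co-chaperone DNAJB1 at 0.35 (adjusted p = 0.685).

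Reported targets of YAP and its partner TEAD split evenly, 13 above 0 and 13 below of 26 tested, with a median of −0.0015. CCN1, a secreted matricellular protein and well-known target, lay at 0.31 (adjusted p = 0.770) near background. It passed background on 4 of the 6 control arrays, and CCN2 on all 6.

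The basal profile was read from the raw signals of the 6 control arrays. Of 20046 genes with a probe, 9940 (49.6%) were above background on all 6 arrays, 3680 on some and 6426 on none, where 4 of the 437 olfactory receptor probes passed on all 6. Vector and mock cells shared nearly all of it. Counted per group, 10347 genes passed on all 3 vector arrays and 10244 on all 3 mock arrays. There were 19 genes above background on all 3 vector arrays and no mock array, and 32 on all 3 mock arrays and no vector array. Of the 9940 genes, 9635 also passed on all 3 YAP-S127A arrays.

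Epithelial genes marked these cells, as the label of the line implies. Of 28 genes of keratins and junctions 25 were above background on all 6 arrays. EPCAM, an epithelial adhesion molecule, gave 17432, 11812 and 13067 on the vector arrays and 12028, 15686 and 16421 on the mock arrays. CDH1, which encodes E-cadherin, gave 6417, 4549 and 6164 on the vector arrays and 5881, 6119 and 5397 on the mock arrays. Both lay many times above background and overlapped between groups. The keratin gene KRT19, a marker of simple epithelium, lay between 79.5 and 118 times the threshold. By their brightest probes the tight junction gene OCLN and the splicing regulator ESRP2 passed on no array.

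Gastric surface genes were largely present, 14 of 18, beside 49.6% of all genes. AGR2, a disulfide isomerase of mucous cells, gave 29551, 23223 and 29266 in vector cells and 24233, 23106 and 29213 in mock cells. TFF1, the trefoil peptide of the stomach surface, gave 2586, 1920 and 2722 in vector cells and 1899, 2090 and 2739 in mock cells. REG4, a secreted lectin found in gastric and intestinal cancers, gave 3313, 2774 and 2590 in vector cells and 2277, 3345 and 3052 in mock cells. CLDN18, a claudin of stomach epithelium, and SOX2 and GATA6, transcription factors of the foregut, passed on all 6 arrays as well. The gastrokines GKN1 and GKN2 and the transcription factor GATA4 passed on none.

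Genes of the deeper gastric glands were not detected as a group. Of 18 markers of parietal, chief and endocrine cells, 0 passed on all 6 arrays and 12 passed on none. Among the 12 were the proton pump gene ATP4A, the gastrin gene GAST and PGC, a pepsinogen gene. Another pepsinogen gene, PGA3, passed on 5 of 6 arrays, at up to 1.24 times the threshold.

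Intestinal genes were mixed, with 9 of 25 above background. CDX2, the master regulator of intestinal identity, gave 476, 299 and 403 in vector cells and 318, 468 and 446 in mock cells. Its relative CDX1 passed on none. CDH17, an intestinal cadherin, gave 1656, 1188 and 1637 in vector cells and 1683, 1676 and 1604 in mock cells. LGALS4, a galectin of the gut, and the carcinoembryonic antigen genes CEACAM5 and CEACAM6 were above background on all 6 arrays. So were TFF3, a goblet cell gene, at 80.6 to 94.1 times the threshold, and VIL1, an enterocyte gene, at 3.62 to 4.71 times. The goblet cell mucin MUC2 and the enterocyte genes FABP1, APOA1 and APOA4 passed on none.

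Receptor genes showed the known MET signal of the line. MET gave 13698, 10146 and 11195 in vector cells and 11678, 13043 and 10892 in mock cells, or 76.7 to 99.2 times the threshold. Normalized, vector and mock cells differed by 0.12 for MET (adjusted p = 0.957). Its ligand HGF passed on 0 of 6 arrays. ERBB2, ERBB3 and EGFR passed on all 6, and so did FGFR3 and FGFR4, while ERBB4, FGFR1, FGFR2 and IGF1R passed on none. In all, 15 of 26 receptors and ligands were above background.

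Most markers of other cell types did not pass background on all 6 arrays, with exceptions. Of 25 mesenchymal markers 8 passed on all 6 arrays. S100A4, a calcium-binding protein that many carcinoma cells also make, stood far above, at 227 to 260 times the threshold, and ACTA2, an actin of smooth muscle, at 4.71 to 6.27 times. The intermediate filament gene VIM lay at 1.53 to 1.86 times the threshold. Of genes that mark epithelial-mesenchymal transition, CDH2, FN1, ZEB1 and SNAI1 passed on none, ZEB2 on 1 and SNAI2 on 2 of 6 arrays. The transcription factor genes TWIST1, at 1.15 to 1.37 times the threshold, and TWIST2, at 1.07 to 1.44 times, passed on all 6. Of 23 blood and immune markers 4 passed, CD2, CD68, FCGR3A and LYZ. CD2 barely passed, at 1.00 to 1.14 times the threshold, and FCGR3A lay at 1.31 to 1.85 times. The defining leukocyte gene PTPRC and the T cell genes CD3D and CD3E passed on none. LYZ encodes lysozyme, which gastric epithelium also makes. Of 14 endothelial markers EGFL7 alone passed, and of 17 liver, neural and muscle markers MBP alone.

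Growth and stress programmes filled the other end of the range. All 36 mitosis genes, 32 of 34 genes of DNA replication, 37 of 38 of hypoxia and glycolysis and 27 of 29 of the integrated stress response were above background on all 6 arrays. TOP2A, the topoisomerase of dividing cells, gave 4398, 2923 and 3744 in vector cells and 2942, 4570 and 3363 in mock cells. CDKN1A, a cell cycle inhibitor and p53 target, gave 2509, 1813 and 2495 in vector cells and 2101, 2178 and 2450 in mock cells. Of the p53 targets 23 of 26 passed. The interferon list stood near the share of all genes, at 20 of 38.

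**Figure D5:**
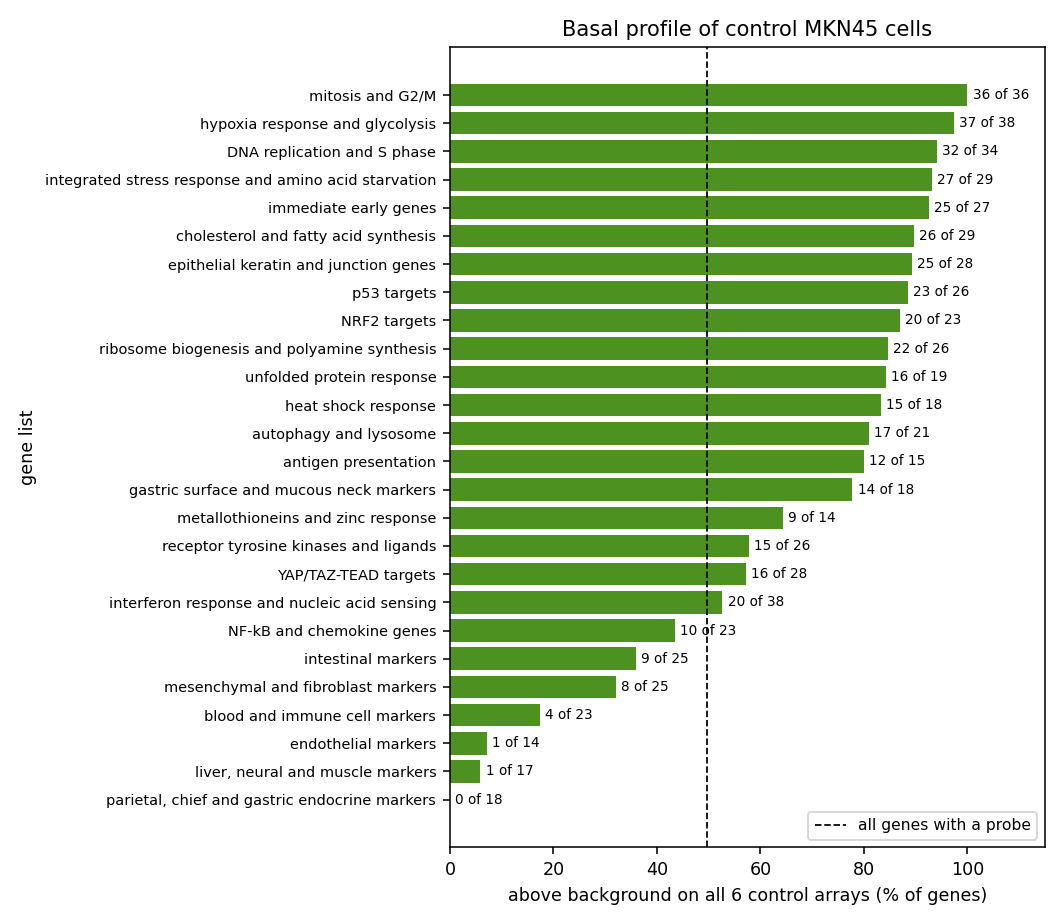
Share of each list's genes with a probe that were above background on all 6 control arrays (%, horizontal axis, with counts), and the share of all genes with a probe (dashed line at 49.6%). Mitosis (36 of 36) and hypoxia genes (37 of 38) stand at the top. Endothelial (1 of 14), liver, neural and muscle (1 of 17) and gastric gland markers (0 of 18) stand at the bottom.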

How the data were processed

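RNA of 9 MKN45 samples was measured on Illumina bead arrays, and groups came from the sample labels. The authors deposited non-normalized signals per probe, which are intensities on a linear scale, without background subtraction as the values show. The deposited normalized table holds log2 values, quantile normalized as the values show, and served as an alternative. BeadStudio is named per the submitters' processing notes, with version and settings not given in the sources used here. No detection p-values were used.

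Signals were corrected with normexp (offset 50), put on log2 and quantile normalized over 9 arrays with limma 3.58.1 (R 4.3.3). Probes with a mean above the lower quartile (6.18) were kept, 35423 of 47231. A probe table linked 30113 probes to 1 gene symbol, 8 to several and 17110 to none, and 30074 symbols were updated by gene ID. The brightest probe stood for each gene (16180). Group means were fitted by limma over all 9 arrays, with 6 residual and 16.4 prior degrees of freedom, with genes called where the adjusted p (Benjamini-Hochberg) was under 0.05. The number of arrays limits the precision. The code was tested on simulated data.

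The comparison and the gene lists were chosen with earlier results of these data known. Genes were named by rule: the genes called, else the 5 with the lowest unadjusted p in a direction, the 2 to 4 such members of each list described, and basal members of the lists. Same-numbered vector and mock arrays did not deviate together, so the numbers were taken not to pair samples.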

Additional observations from a re-analysis of the deposited data

How the results depend on the processing

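HBB was called under every alternative run, with a log2 difference of 1.503 (deposited values) to 2.26 (without vector array 1). The other call, TAOK1, kept its direction. The total of 2 genes called, both higher, became 1 with the deposited values, with the mean of a gene's probes, with only the 6 mock and vector arrays in the fit and at an adjusted p under 0.01. TAOK1 had an adjusted p of 0.0528 with the mean of probes and 0.0505 in the fit of 6 arrays. Leaving out 1 array gave 1 to 54 genes in total, 1 to 8 higher and 0 to 46 lower, and the upper values all came without mock array 3. With the replicate number as a block, 2 genes were called. The correlations of same-numbered deviations were −0.146, 0.029 and −0.063. Genes above background on the control arrays numbered 8820 to 13620 under the alternatives, in place of 9940. The median difference between a vector and a mock array was 0.153 after scaling to equal medians and 0.102 without background correction, in place of 0.130. No called result changed direction. Of 546 list medians under alternatives 42 changed sign, in 11 lists whose own medians lay within 0.0733 of 0, and 5 of these came without mock array 1. None was in the metallothionein, stress response or hypoxia list. Differences of named genes that had not passed the test changed sign in 9 cases. Among the named genes 9 passed the test without mock array 3 that did not otherwise: RBM20, HSCB, MT1E, SSTR2, MBTD1, USH1G, ZMAT3, DUSP4 and HSD17B7. The cause of these changes was not tested. With 3 arrays a group, a typical gene had a standard error of 0.11. Differences well above that size also missed the test, such as HSCB at −0.55 (adjusted p = 0.223, limma). Dim genes were limited by signal near background.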

Other observations

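Probes without a listed gene were outside the report's comparison. In a fit over all 35423 probes past the filter, 3 were called (0.00847%): those of HBB and TAOK1 and ILMN_3268697, a probe with no listed gene, chosen here after its values were seen. ILMN_3268697 had normalized log2 levels of 9.71, 9.83 and 9.82 on the vector arrays, 10.79, 10.13 and 10.24 on the YAP-S127A arrays and 10.56, 11.74 and 10.87 on the mock arrays. All 3 vector arrays were lower than every mock array, and mock array 2 was far above the other mock arrays. The difference between vector and mock was −1.27 ± 0.19 (SE, adjusted p = 0.00911, limma).

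The genes that set mock array 1 furthest above the mean of the other 5 control arrays were OR2A42 by 1.61, TMEM267 by 1.61, DDIT3 by 1.18, MDM2 by 1.15, the pseudogene GSTTP2 by 1.07 and HNRNPU by 1.06 on the log2 scale. MDM2, the ubiquitin ligase that degrades p53, had 8.73 on mock array 1, against 7.36 and 7.54 on mock arrays 2 and 3. Furthest below, apart from HBB, whose mean includes the vector arrays, were HTRA2 at −0.88, DUSP4 at −0.80, ARHGDIA at −0.78, FAIM at −0.74 and PPP2R3B at −0.71. These values are by brightest probe. Another probe above background on all 6 control arrays was not raised on mock array 1 for TMEM267 or HNRNPU. On mock arrays 1 to 3 its signals were 207, 257 and 244 for TMEM267, and 156, 188 and 169 for HNRNPU. For HTRA2, FAIM and PPP2R3B such a probe was lower on mock array 1 than on mock arrays 2 and 3.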
